A study of Mus musculus with 12 samples.

Results

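Lenses heterozygous for the p.I65M substitution in *Trpm3* (*Trpm3*-I/M) were compared with wild-type lenses at postnatal day 7 (P7), gene by gene and by gene function. The comparison rests on 6 of the 12 RNA-sequencing libraries of the series, 3 *Trpm3*-I/M and 3 wild-type, chosen by the genotype in their labels. The other 6 libraries, from lenses homozygous for the substitution (*Trpm3*-M/M) and from knockout lenses (*Trpm3*-KO), shared the estimate of the spread, and the homozygote served as a reference where stated. All strains were kept on the C57BL/6J background, and the substitution was introduced into the germline by CRISPR/Cas9 gene editing, so every cell of the animal carried it and the lens was not targeted alone. Each library was described as pooled lenses, 4 from males and 4 from females, and n below counts libraries, not animals. Nothing in the sources used here says whether the pools of a genotype came from separate litters, so p-values measure the spread between these pools.

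One *Trpm3*-I/M library went against the description of mixed-sex pools. *Trpm3*-I/M replicate 3 held 5 counts of *Xist*, the RNA of the inactive X chromosome of females, where the other *Trpm3*-I/M libraries held 5487 and 9960 and the wild-type libraries 10699, 2182 and 8186. Its summed level of 4 Y-linked genes was 69.9 CPM (counts scaled to a library of fixed size), against 21.7 to 41.9 CPM in the other 5 libraries. The total count of changed genes is therefore given with and without it, and the count in a list of genes is given without it where the number past both thresholds differs.

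TRPM3 is a cation channel of the melastatin-related TRP family that lets calcium and sodium into cells. The lens is a closed body of an anterior epithelium and elongated fiber cells. During development it is wrapped by a capillary net, the tunica vasculosa lentis, which in the mouse is still being resorbed after birth. Fiber cells fill with crystallins, lose their organelles and keep their calcium low with membrane pumps and exchangers.

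The substituted codon is shown because it is what separates the genotypes. It lies in mouse *Trpm3* (GRCm38, chromosome 19, 22139046 to 22995410, plus strand), in a coding exon at 22697422 to 22697501, where 7 of the 18 transcript models examined place an isoleucine codon at residue 65. The first 63 bases of this exon follow, 5′ to 3′ on the plus strand, from the reference genome. Capitals mark codon 65 (22697437 to 22697439), whose change gives I65M.
Trpm3 codon 65, chr19:22697422-22697484: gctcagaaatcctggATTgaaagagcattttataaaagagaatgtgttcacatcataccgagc

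*Trpm3* itself was higher in the heterozygote. Its level was 270, 251 and 285 CPM in the wild-type libraries and 370, 413 and 376 CPM in the *Trpm3*-I/M libraries, and the groups did not overlap. The ratio was 1.44 (log2 0.53 ± 0.06 SE, adjusted p = 1.62e-05 from the quasi-likelihood test of edgeR, adjusted after Benjamini–Hochberg over all tested genes, as is every adjusted p here). Counts per gene do not show which allele a transcript came from, so they do not check the genotype.

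The libraries held 56162169 to 57480971 counts on genes in wild-type and 68589045 to 82090198 in *Trpm3*-I/M. All 6 lens-defining genes, among them *Cryaa* (alpha-A crystallin), were detected in every library, with a summed level of 222600 to 242100 CPM in wild-type and 183800 to 194000 CPM in *Trpm3*-I/M, most of it from *Cryaa*. The least abundant of them, the epithelial transcription factor *Foxe3*, was at 90.8 ± 14.01 against 46.7 ± 6.89 CPM (ratio 0.514, adjusted p = 3.95e-05). Markers of cells outside the lens were low, and those of blood vessels differed between the genotypes. The 21 vascular endothelium markers summed to 15.8 to 18.7 CPM in wild-type and 32.5 to 46.9 CPM in *Trpm3*-I/M. Of the 21, 19 were higher in every *Trpm3*-I/M library than in any wild-type library, and 1 was lower in every one. The 13 pericyte and vascular smooth muscle markers summed to 37.6 to 44.0 and 51.8 to 61.0 CPM. Of the 13, 10 were higher without overlap and 1 lower. Over all tested genes, 23.1% lay wholly above wild-type and 21.5% wholly below. Fibroblast markers summed to 81.6 to 90.5 and 76.9 to 81.1 CPM although 3 of their 6 tested genes rose. These 3 had no wild-type library at 5 CPM, and 5 of the 6 were tested only because of their level in other genotypes. The fibroblast sum rested mainly on *Pdgfra*, at 82.2, 74.2 and 81.7 CPM against 65.85, 68.5 and 63.3 CPM. Of the 19 listed fibroblast markers, 7 were higher without overlap and 4 lower, so the sum does not describe the list. Macrophage markers summed to 1.47 to 2.42 and 2.93 to 3.00 CPM. In these bulk samples, more cells of a type and more RNA per cell cannot be told apart.

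**Figure D1:**
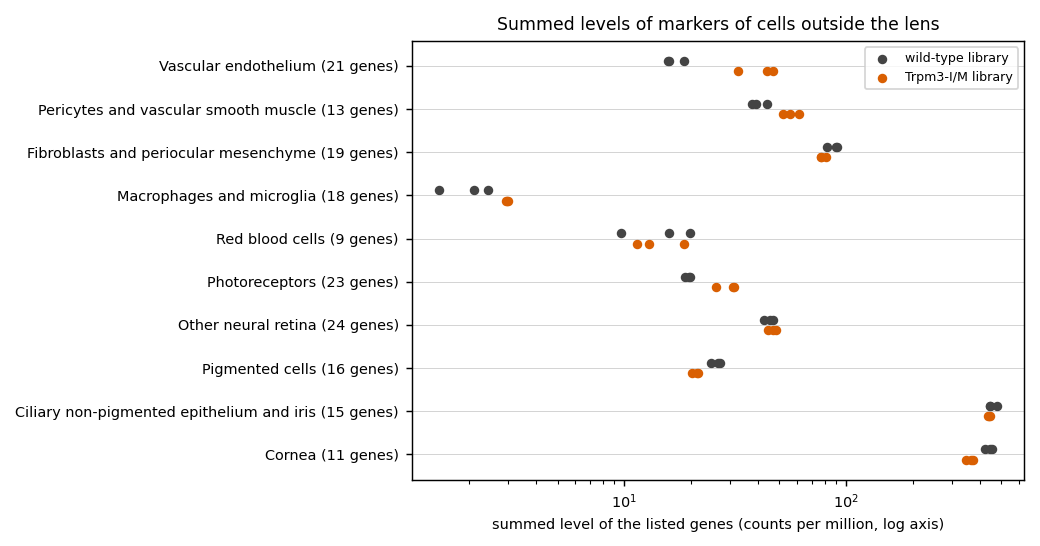
Summed level of each list of marker genes of cells outside the lens, in CPM on a log axis, with 1 point per wild-type (grey) or *Trpm3*-I/M (orange) library. The *Trpm3*-I/M points lie above all wild-type points for vascular endothelium (32.5 to 46.9 against 15.8 to 18.7 CPM), pericytes, macrophages and photoreceptors, below them for fibroblasts, pigmented cells and cornea, and overlap them for red blood cells, neural retina and ciliary epithelium. The fibroblast sum rests mainly on *Pdgfra*.

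The photoreceptor list summed to 18.9 to 19.7 CPM in wild-type and 25.9 to 31.2 CPM in *Trpm3*-I/M, but only 3 of its 23 genes were higher without overlap, and 2 were lower. The lists for ciliary epithelium and cornea rested mainly on 1 gene each, *Aldh1a1* (451 against 434 CPM) and *Tkt* (438 against 359 CPM), and summed to 444 to 476 against 436 to 446 CPM and to 422 to 455.8 against 348 to 372.5 CPM. Neural retina, red blood cell and pigmented cell markers summed to 42.6 to 46.9 against 44.5 to 48.2 CPM, 9.65 to 19.8 against 11.4 to 18.6 CPM and 24.5 to 26.9 against 20.2 to 21.4 CPM.

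Of 8984 genes tested, 299 changed between *Trpm3*-I/M and wild-type lenses by at least 2-fold at an adjusted p of at most 0.05, which was 3.33% of the tested genes. Higher expression was the more frequent direction, with 232 genes higher in the heterozygote (2.58%) and 67 lower (0.746%). The median log2 change of the higher genes was 1.68 and that of the lower genes fell by 1.33, while the median over all tested genes was -0.0009. Changes of at least 4-fold were found in 85 of the higher and 11 of the lower genes, and of at least 8-fold in 49 and 3. In 298 of the 299 genes the *Trpm3*-I/M libraries did not overlap the wild-type libraries. The genes were called on these same libraries, so this separation follows largely from the choice and adds no support. Of all tested genes, 23.1% lay wholly above and 21.5% wholly below. Without *Trpm3*-I/M replicate 3 the count was 308, and 291 of the 299 genes were among them.

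Most of the changes past the adjusted p alone were small. At an adjusted p of at most 0.05, 2929 genes differed (32.6%), of which 1552 were higher (17.3%) and 1377 lower (15.3%). Of these, 2630 differed by less than 2-fold and 2297 by less than 1.5-fold, with a median absolute log2 change of 0.31. Below, a gene is said to have risen or fallen where it passed both thresholds.

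The filter on low counts bears on the number of higher genes. A gene was tested if it reached 5 CPM in at least 3 of all 12 libraries, and 114 of the 232 higher genes and 9 of the 67 lower genes reached this only with the help of *Trpm3*-M/M or *Trpm3*-KO libraries. With the minimum applied to the 6 libraries of this comparison, 118 genes were higher and 57 lower. The mean wild-type level was under 1 CPM for 97 of the 232 higher genes, whereas 63 of the 67 lower genes had a wild-type mean of at least 5 CPM. A gene with no wild-type library at 5 CPM was tested through the genotypes in which it was high, so a list's number of rises cannot be read against the background where it rests on such genes. Their number is given where a list had 2 or more rises and any such gene among them.

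**Figure D2:**
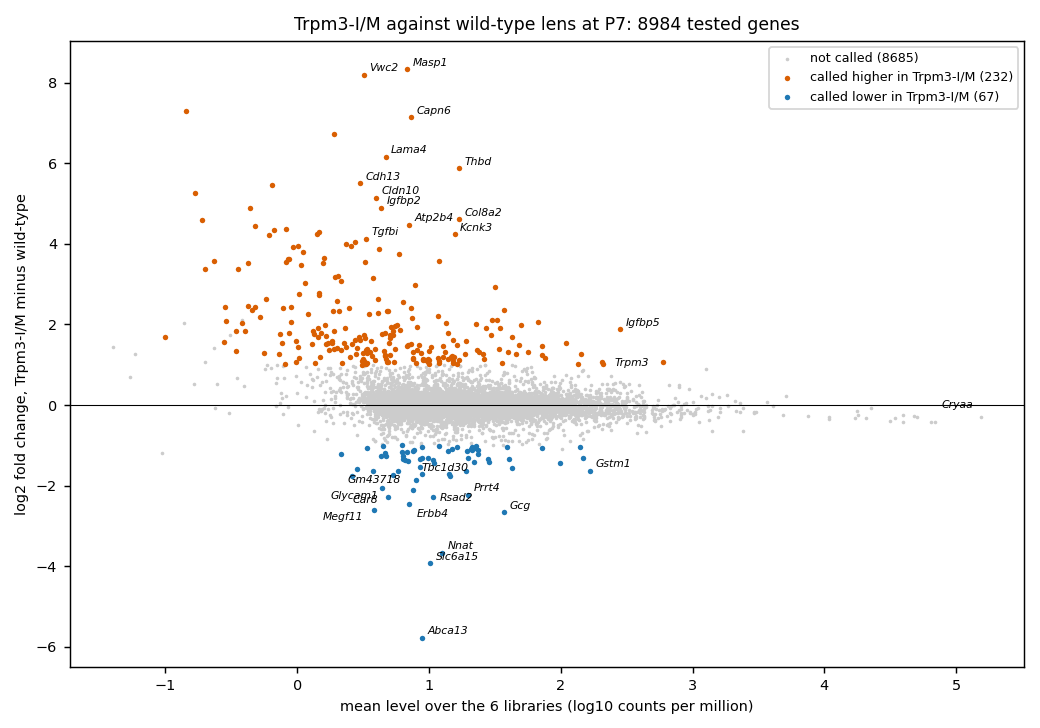
Log2 fold change of *Trpm3*-I/M over wild-type against the mean level over the 6 libraries (log10 CPM), 1 point per tested gene. The 232 higher genes (orange) reach log2 changes above 8 and lie mostly at low mean levels, the 67 lower genes (blue) reach -5.78 for *Abca13*, and *Cryaa*, the most abundant gene labelled, lies at -0.29.

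The 12 largest rises among genes above 5 CPM held a complement protease, matrix and adhesion genes, a calcium pump and a potassium channel. *Masp1*, a protease of the lectin pathway of complement, was at 0, 0.042 and 0.0793 CPM in wild-type and at 12.5, 14.6 and 13.8 CPM in *Trpm3*-I/M. Its log2 change was 8.34 ± 0.22 (adjusted p = 3.16e-11). *Thbd*, the endothelial anticoagulant receptor thrombomodulin, went from 0.688, 0.399 and 0.595 CPM to 33.5, 34.9 and 31.3 CPM, a ratio of 58.8 (adjusted p = 3.16e-11). *Capn6*, a calpain without protease activity that binds microtubules, was at 0, 0.147 and 0.159 CPM in wild-type and at 13.3, 16.1 and 14.01 CPM in *Trpm3*-I/M (log2 change 7.14 ± 0.29). These genes were close to silent in wild-type and rose above 12 CPM in every heterozygous pool.

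*Vwc2*, a secreted antagonist of bone morphogenetic proteins, held 3 counts over all wild-type libraries and 1455 over the *Trpm3*-I/M libraries, a ratio of 320 with a counting interval from 109 to 1553 (exact 95%, counting error only). *Lama4*, the laminin alpha-4 chain of vessel basement membranes, rose from 0.129 ± 0.0791 to 9.24 ± 1.31 CPM (SD, n = 3). *Cdh13*, a cadherin anchored by lipid, rose from 0.127 ± 0.0478 to 5.87 ± 0.569 CPM. The claudin *Cldn10*, a tight-junction protein, lay at 0.177, 0.210 and 0.258 CPM in wild-type and at 7.62, 7.69 and 7.67 CPM in *Trpm3*-I/M. Its *Trpm3*-I/M libraries lay within an SD of 0.0384 CPM of each other.

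*Igfbp2*, which binds insulin-like growth factors, rose 29.6-fold to 8.40 ± 1.20 CPM. The collagen VIII chain *Col8a2* rose 24.4-fold, from 1.55, 1.28 and 1.17 CPM to 30, 34.3 and 33.6 CPM. *Atp2b4*, a plasma membrane calcium pump, rose 22.2-fold and *Kcnk3*, a background potassium channel, rose 18.9-fold. *Tgfbi*, a matrix protein induced by TGF-beta, was the most variable of the 12, at 8.55, 4.38 and 5.88 CPM in *Trpm3*-I/M against 0.354, 0.378 and 0.337 CPM in wild-type. All 12 separated the groups without overlap, as did nearly all changed genes.

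The 12 largest falls held transporters, secreted peptides and receptors. *Abca13*, a large ABC transporter, was at 17.6, 11.8 and 23.0 CPM in wild-type and at 0.216, 0.219 and 0.533 CPM in *Trpm3*-I/M, 55.1-fold lower (adjusted p = 5.12e-08). *Slc6a15*, a neutral amino acid transporter, was at 18.3, 18.8 and 20.4 CPM against 1.19, 1.05 and 1.56 CPM, 15.3-fold lower (adjusted p = 1.08e-10). *Nnat*, which encodes the endoplasmic reticulum protein neuronatin and is imprinted, was at 23.4, 24.4 and 22.3 CPM against 1.63, 1.69 and 2.19 CPM, 12.8-fold lower (adjusted p = 1.08e-10). *Nnat* lies inside another gene, and the library kit does not mark strand. These 3 were at 2.19 CPM or less in every heterozygous pool and at 11.8 CPM or more in every wild-type pool.

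*Gcg*, which encodes the glucagon precursor, fell 6.32-fold but varied widely in wild-type, at 56.3, 95.9 and 39.0 CPM against 9.09, 8.31 and 12.9 CPM. *Megf11*, an EGF-repeat receptor, fell 6.03-fold and *Erbb4*, a neuregulin receptor, fell 5.49-fold, from 11.98 ± 1.48 to 2.19 ± 0.399 CPM. The antiviral gene *Rsad2* and the mucin gene *Glycam1* each fell 4.89-fold. *Prrt4* fell 4.71-fold with little spread, from 33.8, 32.4 and 31.8 CPM to 6.997, 6.71 and 7.12 CPM. The predicted gene *Gm43718*, the carbonic anhydrase-related gene *Car8* and the Rab GTPase regulator *Tbc1d30* fell 4.30-fold, 4.196-fold and 3.61-fold.

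**Figure D3:**
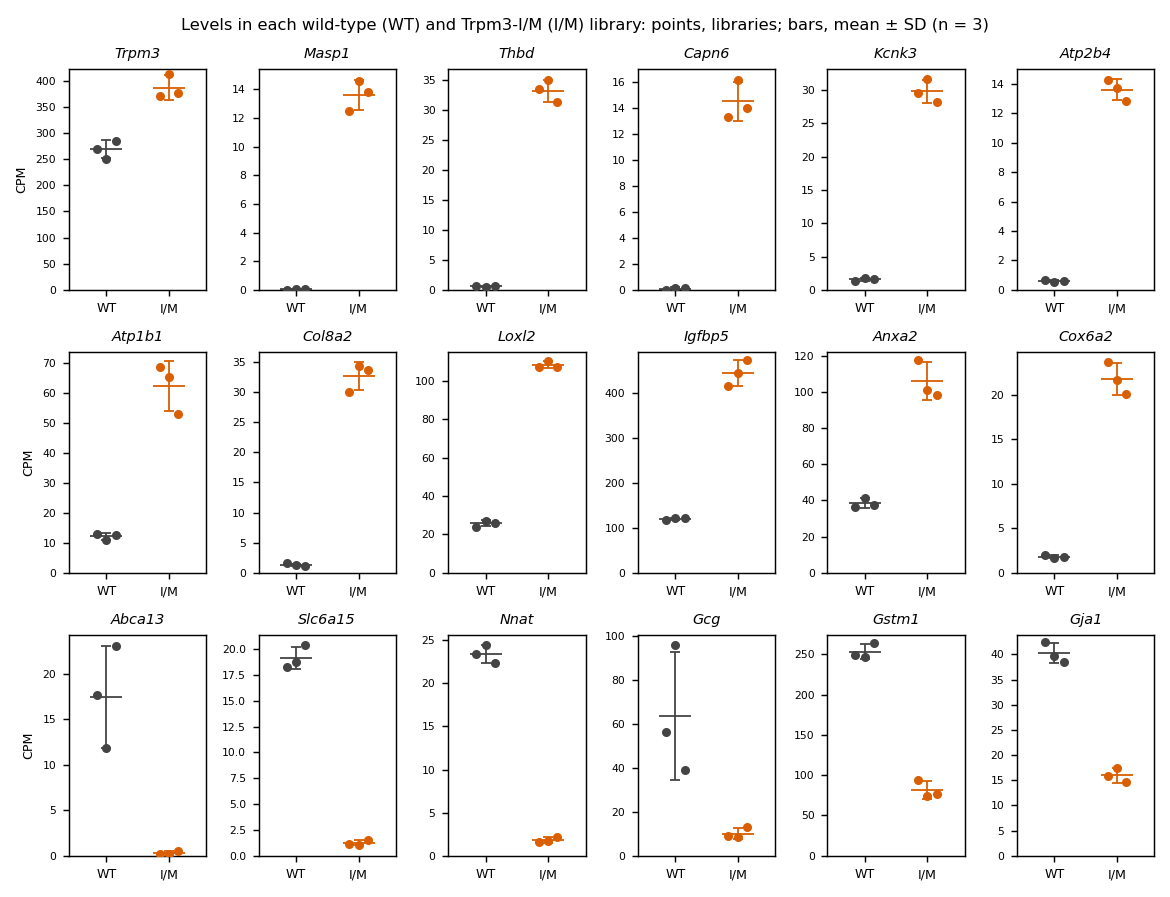
CPM of 18 genes in each wild-type (grey) and *Trpm3*-I/M (orange) library, with points for libraries and bars for the mean ± SD (n = 3) on linear axes from 0. *Trpm3* differs by a ratio of 1.44, *Masp1*, *Thbd* and *Capn6* are near 0 in wild-type, and *Abca13*, *Slc6a15* and *Nnat* are at 2.19 CPM or less in *Trpm3*-I/M.

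To describe the changes by function, 42 lists of genes were used, and 105 of the 299 changed genes were in at least 1 of them. A further 12 were only in lists of markers of other cell types, and 182 were in no list. Beside the counts below, 3.33% of all tested genes changed. Beside counts at the adjusted p alone, 17.3% of all tested genes were higher and 15.3% lower.

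**Figure D4:**
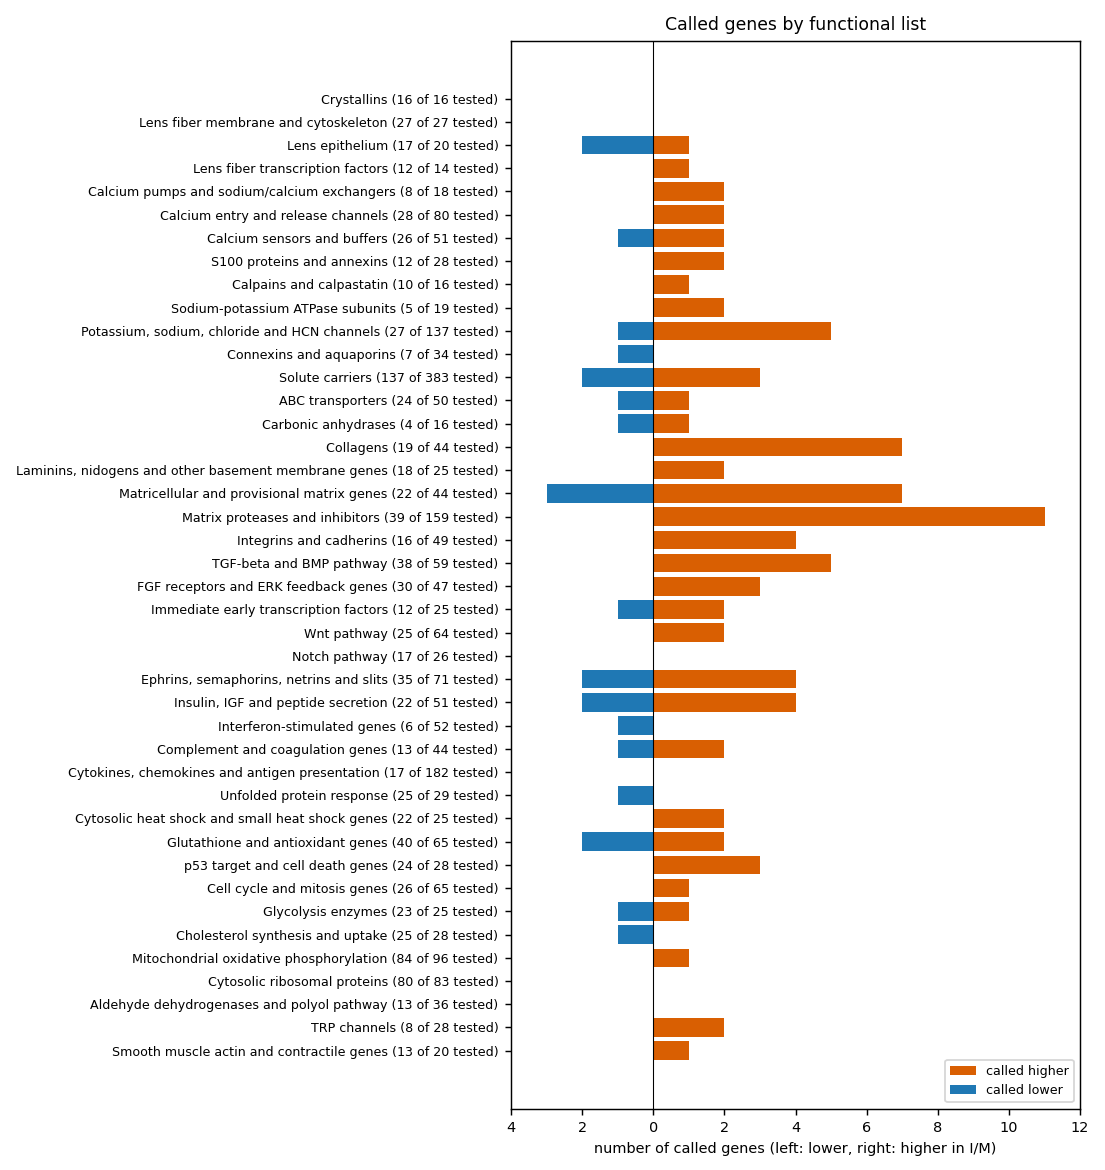
Number of genes in each of 42 functional lists that were higher (right, orange) or lower (left, blue) in *Trpm3*-I/M by at least 2-fold at an adjusted p of at most 0.05, with the tested and listed genes in brackets. Matrix proteases and inhibitors had 11 higher and 0 lower, collagens 7 and 0, and crystallins and ribosomal proteins 0 and 0.

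Calcium pumps and sodium/calcium exchangers move calcium out of the cytosol. Of 18 listed, 8 were tested and 2 rose, both with no wild-type library at 5 CPM. *Atp2b4* was at 0.668, 0.525 and 0.634 CPM in wild-type and at 14.2, 13.7 and 12.9 CPM in *Trpm3*-I/M (log2 change 4.47 ± 0.14, adjusted p = 1.08e-10). *Atp2b1*, another plasma membrane calcium pump, was at 4.33, 4.14 and 4.68 CPM against 10.9, 11.2 and 10.5 CPM (log2 change 1.31 ± 0.07, adjusted p = 3.36e-08). The abundant members moved little. *Atp2a2*, the pump of the endoplasmic reticulum, was at 115 ± 8.19 against 136 ± 4.16 CPM (ratio 1.18, adjusted p = 0.0027), and the exchanger *Slc24a4* at 148 ± 5.13 against 132 ± 5.39 CPM (ratio 0.888, adjusted p = 0.0169).

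Among 28 tested of 80 calcium entry and release channels, 2 rose, both with no wild-type library at 5 CPM, and none fell, with a median log2 change of 0.07. *Trpv4*, a mechanically and osmotically gated TRP channel, was at 3.13, 3.36 and 2.64 CPM against 7.46, 7.86 and 6.06 CPM (2.35-fold, adjusted p = 5.74e-06). *Trpc4* held 4 counts in wild-type and 192 in *Trpm3*-I/M, a ratio of 31.7 with an interval from 12.2 to 117, and was tested only because of its level in *Trpm3*-M/M. *Trpm1*, whose protein serves retinal bipolar cells, was at 7.42 ± 0.841 against 6.29 ± 0.368 CPM and did not pass (adjusted p = 0.0629).

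Calcium sensors and buffers moved in both directions, with 2 of 26 tested members higher and 1 lower. *Cabp5*, a calmodulin-related sensor, was at 6.94, 4.24 and 5.59 CPM against 15.9, 10.5 and 16.3 CPM (2.54-fold, adjusted p = 0.000155). *Rcan1*, a calcineurin inhibitor and calcineurin target gene, was at 22.9, 25.1 and 20.2 CPM against 61.2, 56.5 and 50.9 CPM (2.47-fold, adjusted p = 2.14e-07). The calmodulin-dependent kinase *Camk1d* fell 2.49-fold, from 28.1 ± 1.59 to 11.3 ± 0.267 CPM.

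Of 12 tested S100 proteins and annexins, which bind calcium and membranes, 7 were higher and 2 lower at the adjusted p, and 2 rose by at least 2-fold. Those were *Anxa2*, at 36.5, 41.5 and 37.4 CPM against 118, 101.2 and 98.2 CPM (2.75-fold), and *S100a10*, its binding partner, at 9.54, 11.8 and 11.02 CPM against 22.4, 22.7 and 20.6 CPM (2.03-fold). The rise of *S100a10* lay at the threshold and dropped under 2-fold without wild-type replicate 1 (log2 0.94) or *Trpm3*-I/M replicate 2 (log2 0.99). *S100a6* was at 100 ± 11.6 against 137 ± 22.2 CPM (adjusted p = 0.0251). Of the 10 calpains and calpastatin tested, *Capn6*, with no wild-type library at 5 CPM, alone rose, and *Capns1*, the small subunit shared by the main calpains, differed by a ratio of 1.19 (adjusted p = 0.000799).

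Subunits of the sodium-potassium ATPase, which sets the sodium and potassium gradients, differed in both directions, with 2 of 5 tested higher by at least 2-fold, 1 of them with no wild-type library at 5 CPM, and 2 lower at the adjusted p. *Atp1b1*, a beta subunit, was at 12.96, 10.97 and 12.7 CPM in wild-type and at 68.9, 65.4 and 53.2 CPM in *Trpm3*-I/M (5.11-fold, adjusted p = 2.82e-09). The more abundant beta subunit *Atp1b3* was lower at the adjusted p, at 138 ± 5.82 against 108 ± 11.3 CPM.

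Of 137 potassium, sodium, chloride and HCN channels, 27 were tested, 5 rose, all with no wild-type library at 5 CPM, and 1 fell, and of the tested genes 6 reached the minimum level only through *Trpm3*-I/M and 4 only with other genotypes. *Kcnk3* was at 1.36, 1.74 and 1.63 CPM against 29.5, 31.6 and 28.2 CPM. The delayed-rectifier channel *Kcna5* was at 1.85, 1.91 and 1.53 CPM against 13.5, 15.2 and 12.7 CPM (7.84-fold, adjusted p = 8.56e-10). The inward rectifier *Kcnj10* rose from 2.78 ± 0.102 to 6.50 ± 0.863 CPM. *Ano1*, a calcium-activated chloride channel, fell 2.62-fold, from 10.1 ± 1.53 to 3.85 ± 0.682 CPM. The median log2 change of the 27 tested channels was -0.03.

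Transporters changed in both directions. Of 137 tested solute carriers (383 listed), 3 rose, all with no wild-type library at 5 CPM, and 2 fell, with a median log2 change of 0.03. For 27 of the 137 the minimum level was reached only with *Trpm3*-M/M or *Trpm3*-KO libraries, so this count cannot be read against the background. The urea transporter *Slc14a1* held 4 counts in wild-type and 287 in *Trpm3*-I/M (ratio 47.3, interval 18.3 to 175). The organic anion transporter *Slco5a1* rose 5.96-fold and the creatine transporter *Slc6a8* 2.05-fold, the latter under 2-fold without wild-type replicate 1 (log2 0.92) or *Trpm3*-I/M replicate 1 (log2 0.99). Besides *Slc6a15*, the lactate carrier *Slc16a1* fell 2.51-fold, from 12.1 ± 0.850 to 4.83 ± 0.790 CPM. Of 24 ABC transporters tested, *Abcb1b*, a drug efflux pump, rose 3.05-fold and *Abca13* fell. *Abca2*, the most abundant of them, differed by a ratio of 0.831 (adjusted p = 0.00122). Of 4 carbonic anhydrases tested, *Car2* rose 2.57-fold, from 4.51 ± 0.426 to 11.6 ± 1.53 CPM, *Car8* fell, *Car9* passed both thresholds without *Trpm3*-I/M replicate 3 (log2 1.28, from 0.98), and *Car14* was at 31.6 ± 1.47 against 25.9 ± 1.19 CPM (adjusted p = 0.0222).

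Several lists of extracellular matrix and adhesion genes held rises. Collagens, which form fibrils, networks and the lens capsule, had 7 of 19 tested members (44 listed) higher, all with no wild-type library at 5 CPM, and none lower. For 8 of the 19 the minimum level was reached only with *Trpm3*-M/M or *Trpm3*-KO libraries and for 2 only through *Trpm3*-I/M, so this count cannot be read against the background. *Col8a2* led. *Col15a1* and *Col18a1*, collagens of vessel and epithelial basement membranes, were at 0.147 ± 0.0463 against 2.08 ± 0.883 CPM and at 1.59 ± 0.139 against 8.09 ± 2.195 CPM. The fibrillar chain *Col5a2* rose from 1.16 ± 0.262 to 3.40 ± 0.413 CPM. *Col12a1* held 7 counts in wild-type and 35 in *Trpm3*-I/M, and its adjusted p was 0.0282 in all libraries and between 0.0509 and 0.112 without any one wild-type library or without *Trpm3*-I/M replicate 2. The main capsule collagens did not follow. *Col4a1* was at 3084 ± 237 against 2746 ± 39.9 CPM (adjusted p = 0.0466) and *Col4a2* at 2412 ± 209 against 2149 ± 86.1 CPM (adjusted p = 0.0846).

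Of 18 other basement membrane genes tested, 2 rose, both with no wild-type library at 5 CPM, and none fell, although *Lama2*, a laminin chain, passed the threshold without *Trpm3*-I/M replicate 3 (log2 -1.04, from -0.997). These were *Lama4* and the nidogen *Nid2*, the latter from 2.54 ± 0.736 to 7.42 ± 0.666 CPM. *Sparc*, an abundant collagen-binding protein of the lens, was at 1121 ± 31.7 against 1069 ± 71.0 CPM (adjusted p = 0.384). Of 22 matricellular and provisional matrix genes tested, 7 rose, 6 of them with no wild-type library at 5 CPM, and 3 fell, and 12 of the 22 were tested only because of their level in other genotypes. *Tnc* (tenascin C) was at 0.0393, 0.105 and 0.0793 CPM against 2.79, 1.09 and 0.807 CPM, and *Postn* (periostin) at 0.157, 0.126 and 0.139 CPM against 2.26, 2.72 and 3.14 CPM. *Fbn2* (fibrillin 2) was at 1.73, 1.09 and 1.31 CPM against 4.21, 6.83 and 9.26 CPM, and *Prelp*, a leucine-rich repeat proteoglycan, at 0.128 ± 0.0619 against 0.715 ± 0.140 CPM. Of these 4, *Fbn2* alone ended above 5 CPM. The list's other changed genes, named after their values were seen, were more abundant. *Ccn2*, a matricellular growth factor partner, was at 16.2, 13.97 and 14.6 CPM against 41.5, 32.5 and 34.2 CPM (2.41-fold), and the small proteoglycan *Fmod* (fibromodulin) rose from 2.45 ± 0.288 to 8.19 ± 0.411 CPM. *Emilin1*, an elastic fiber glycoprotein, fell 2.65-fold, from 31.9 ± 2.49 to 12.03 ± 0.591 CPM, and *Tnxb* (tenascin X) 2.42-fold, while *Sparcl1* is described below with the homozygote. The abundant members *Vit* and *Ogn* were at 304 ± 32.7 against 330 ± 13.8 CPM and 230 ± 11.3 against 252 ± 6.49 CPM, with adjusted p of 0.235 and 0.0449.

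Matrix proteases and their inhibitors had 11 higher and none lower of 39 tested (159 listed). Of the 11, 8 had no wild-type library at 5 CPM, and 11 of the 39 were tested only through other genotypes and 3 only through *Trpm3*-I/M. *Loxl2*, a lysyl oxidase that cross-links collagen, was at 24.0, 27.2 and 26.2 CPM against 107, 111 and 107 CPM (4.202-fold, adjusted p = 6.83e-11). The secreted serine protease *Htra1* was at 125, 144 and 134 CPM against 297, 285 and 258 CPM (2.08-fold, adjusted p = 1.16e-07). *Adamts17*, a metalloprotease, was at 4.52, 3.87 and 4.06 CPM against 19.3, 17.6 and 20.4 CPM (4.59-fold). *Loxl2* and *Htra1* were above the minimum level in both genotypes, whereas *Adamts17* had no wild-type library at 5 CPM. The serpins *Serpinb6b* and *Serpine2* rose 6.15-fold and 5.10-fold. *Htra3*, the most abundant of the list, was lower at the adjusted p, at 309 ± 11.9 against 247 ± 19.9 CPM (ratio 0.799).

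Of 16 integrins and cadherins tested, 4 cadherins rose, 3 of them with no wild-type library at 5 CPM, and none fell. *Cdh4*, a classical cadherin, was at 25.6, 23.5 and 26.5 CPM against 69.5, 70.5 and 71.4 CPM (2.80-fold, adjusted p = 1.43e-10). *Cdh3* was at 1.81 ± 0.207 against 5.51 ± 0.443 CPM, and *Cdh5*, the cadherin of endothelial cells, at 0.256, 0.084 and 0.397 CPM against 1.69, 3.32 and 3.63 CPM. Several matrix and adhesion genes that rose, among them *Lama4*, *Cdh5*, *Col15a1* and *Col18a1*, are also known from blood vessels, as is the coagulation gene *Thbd*. The summed vascular endothelium markers rose from at most 18.7 to at least 32.5 CPM in the same libraries. In the homozygote those markers summed to 107.8 to 126.6 CPM, while *Thbd* was at 33.2 ± 1.85 CPM in the heterozygote and 35.8 ± 5.40 CPM in the homozygote. The part of vessel cells in these changes was not tested.

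Vascular endothelium markers themselves had 8 of 10 tested members higher, 7 of them with no wild-type library at 5 CPM, and none lower, but 8 of the 10 were tested only because of their level in other genotypes. The receptor *Flt1* was at 0.0197, 0.105 and 0.0595 CPM against 0.607, 1.40 and 1.82 CPM, *Cldn5*, the claudin of endothelial tight junctions, at 0.059, 0.126 and 0.178 CPM against 1.38, 2.08 and 2.22 CPM, and the receptor *Tie1* at 0.0598 ± 0.0684 against 1.16 ± 0.358 CPM. *Cd34* was at 0.129 ± 0.0858 against 1.53 ± 0.776 CPM. Within *Trpm3*-I/M, replicate 1 had the lowest value of each of these genes. *Tek*, the angiopoietin receptor, was at 5.70 ± 0.841 against 12.5 ± 0.962 CPM (2.18-fold). *Egfl7*, the most abundant of the list in wild-type, was lower at the adjusted p, at 7.78 ± 0.509 against 6.32 ± 0.533 CPM (adjusted p = 0.0241). Of 6 tested pericyte markers, 4 rose, all with no wild-type library at 5 CPM. *Rgs5* was at 0.256, 0.294 and 0.971 CPM against 2.59, 7.36 and 8.001 CPM, *Anpep* at 1.85 ± 0.472 against 10.9 ± 0.511 CPM, *Mcam* at 1.58 ± 0.246 against 4.98 ± 0.253 CPM and *Cspg4* at 0.0878 ± 0.0425 against 0.476 ± 0.133 CPM.

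The changed genes of the TGF-beta, BMP and FGF pathways were all higher, most of them with no wild-type library at 5 CPM. Of 38 tested TGF-beta and BMP pathway genes, 5 rose, 3 of them with no wild-type library at 5 CPM, and none fell, with a median log2 change of 0.08. *Ltbp1*, which holds latent TGF-beta in the matrix, was at 9.26, 7.63 and 8.46 CPM against 22.0, 25.2 and 24.6 CPM (2.83-fold). *Chrdl1*, a BMP antagonist, was at 6.08, 6.30 and 6.36 CPM against 23.1, 22.0 and 20.1 CPM (3.48-fold, adjusted p = 3.52e-10). The ligand *Tgfb3* rose 2.33-fold, and the co-receptor *Eng*, abundant in endothelium, rose from 0.234 ± 0.141 to 2.98 ± 1.01 CPM.

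Of 30 tested FGF receptor and ERK feedback genes, 3 rose, 2 of them with no wild-type library at 5 CPM, and none fell. *Etv5*, a transcription factor induced by FGF signalling, was at 33.03, 31.6 and 31.6 CPM against 80.6, 85.3 and 73.8 CPM (2.49-fold, adjusted p = 2.57e-09). *Fgf12*, an intracellular FGF that regulates sodium channels, rose from 2.04 ± 0.346 to 5.09 ± 0.528 CPM, and *Etv4* from 0.321 ± 0.0829 to 0.798 ± 0.241 CPM. Of 12 immediate early transcription factors tested, *Fosl2* and *Klf2* rose, both with no wild-type library at 5 CPM, the former from 0.663 ± 0.0931 to 2.61 ± 0.242 CPM and the latter from 0.920 ± 0.136 to 2.77 ± 0.132 CPM, and *Egr1* fell from 4.28 ± 0.896 to 1.45 ± 0.518 CPM. The genes of this list thus did not move one way.

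Of 25 Wnt pathway genes tested, *Apcdd1*, a Wnt inhibitor, rose 6.93-fold to 2.57 ± 0.153 CPM, and the receptor *Fzd2* 2.06-fold, 1 of the pair with no wild-type library at 5 CPM. *Fzd2* dropped under 2-fold without *Trpm3*-I/M replicate 1 (log2 0.98) or wild-type replicate 3 (log2 0.89). The abundant secreted Wnt modulators *Dkk3* and *Sfrp1* differed by ratios of 1.19 and 0.855. None of 17 tested Notch pathway genes passed both thresholds, with 4 higher and 3 lower at the adjusted p. Of 35 axon guidance genes tested, 4 rose, 2 of them with no wild-type library at 5 CPM, and 2 fell. Without *Trpm3*-I/M replicate 3 there were 5 rises, the added gene being the ligand *Slit2* (log2 1.004, from 0.98). *Unc5b*, a netrin receptor, rose 3.08-fold, *Robo2*, a slit receptor, 3.07-fold, and *Plxnd1*, a semaphorin receptor, 2.15-fold, although under 2-fold without wild-type replicate 2 (log2 0.99). *Nrp2*, a semaphorin co-receptor, rose from 0.195 ± 0.0211 to 0.497 ± 0.0896 CPM. The ephrin receptor *Epha5* fell from 5.69 ± 0.184 to 1.83 ± 0.189 CPM, and the secreted semaphorin *Sema3a*, named after its values were seen, fell 2.07-fold from 52.5 ± 3.06 to 25.4 ± 2.01 CPM.

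Of 22 tested insulin, IGF and peptide secretion genes, 4 rose, 2 of them with no wild-type library at 5 CPM, and 2 fell. *Igfbp5*, an IGF-binding protein, was at 118, 122 and 122 CPM against 416, 445 and 474 CPM (3.69-fold, adjusted p = 3.56e-08), the largest gain in CPM among the genes of this list. *Igfbp3* rose from 0.417 ± 0.0544 to 1.98 ± 0.365 CPM. *Igf2r*, the receptor that clears IGF2 and the list's remaining rise beside *Igfbp2*, was at 63.2, 47.4 and 56.6 CPM against 162, 147 and 177 CPM (2.91-fold), and was named after its values were seen. *Igfbp7*, the most abundant member, was at 849 ± 26.6 against 793 ± 59.5 CPM (adjusted p = 0.346). The 2 falls were *Gcg* and *Nnat*.

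Most of the listed immune genes were expressed too low to be tested. Of 13 complement and coagulation genes tested, *Masp1* and *Thbd* rose, both with no wild-type library at 5 CPM, and *F2r*, the thrombin receptor, fell 2.66-fold, from 41.6, 38.1 and 45.1 CPM to 17.3, 15.4 and 14.3 CPM. *Clu* (clusterin), the most abundant of them, was at 802 ± 67.4 against 1066 ± 87.2 CPM (ratio 1.33, adjusted p = 0.00133). Only 6 of 52 interferon-stimulated genes were expressed highly enough to be tested, and *Rsad2* fell, from 15.96, 18.8 and 18.5 CPM to 3.05, 4.27 and 3.55 CPM. Of 182 cytokine, chemokine and antigen presentation genes, 17 were tested and none passed both thresholds, with 4 higher at the adjusted p.

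Most stress genes past the adjusted p did not reach 2-fold. Of 25 tested genes of the unfolded protein response, 14 were higher and 2 lower at the adjusted p (17.3% and 15.3% over all tested genes), with a median log2 change of 0.25. The chaperone *Hsp90b1* was at 142, 144 and 147 CPM against 190, 179 and 190 CPM (ratio 1.29), and *Pdia6*, a disulfide isomerase, at 249 ± 12.8 against 277 ± 2.19 CPM (ratio 1.11). The one member past both thresholds fell. It was *Ppp1r15a*, a phosphatase subunit induced by stress, at 164, 281 and 121 CPM against 91.7, 90.6 and 90.7 CPM, and its log2 change dropped from -1.05 to -0.65 without wild-type replicate 2. Of 22 tested cytosolic heat shock genes, 10 were higher and none lower at the adjusted p. Both members past 2-fold had no wild-type library at 5 CPM. *Hspb8* rose 3.62-fold and *Hspa1b*, whose near-identical copy makes its counts uncertain, 5.04-fold. *Hspb1* was at 887 ± 82.7 against 1637 ± 89.0 CPM (ratio 1.84, adjusted p = 0.000164), and *Hsp90ab1* at 2004 ± 72.4 against 2160 ± 80.2 CPM (adjusted p = 0.164).

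Of 40 glutathione and antioxidant genes tested, 2 rose, both with no wild-type library at 5 CPM, and 2 fell, and the falls were in the more abundant genes. *Gstm1*, a glutathione transferase, was at 249, 247 and 264 CPM against 93.8, 74.4 and 76.8 CPM (3.10-fold lower, adjusted p = 4.48e-09). Its neighbour *Gstm2* was at 21.0, 21.0 and 23.2 CPM against 7.87, 5.92 and 5.98 CPM (3.30-fold lower), and the counting can split reads between such related genes. *Txnip*, an inhibitor of thioredoxin, was at 2.81, 3.66 and 3.59 CPM against 15.7, 8.39 and 14.2 CPM, and the metallothionein *Mt1* rose from 0.343 ± 0.0813 to 1.45 ± 0.252 CPM. *Gstp1* was at 226 ± 19.1 against 337 ± 19.5 CPM (ratio 1.49, adjusted p = 3.80e-05) and *Hmox1* at 1188 ± 63.8 against 1334 ± 78.1 CPM (adjusted p = 0.408).

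Of 24 p53 target and cell death genes tested, 3 rose, all with no wild-type library at 5 CPM. *Cdkn1a*, the cell cycle inhibitor p21, was at 0.0983, 0.168 and 0.119 CPM against 2.18, 1.23 and 1.36 CPM, *Plk2* at 0.390 ± 0.0336 against 1.13 ± 0.226 CPM and *Phlda3* at 1.96 ± 0.0478 against 4.36 ± 0.770 CPM. *Ccng1*, the most abundant of the list, was lower at the adjusted p (302 ± 37.7 against 225 ± 10.5 CPM). *Cdkn1a* was also the one of 26 tested cell cycle genes past both thresholds, joined by *Cdk6*, a cell cycle kinase, without *Trpm3*-I/M replicate 3 (log2 1.013, from 0.96). *Cdkn1c*, the cyclin-dependent kinase inhibitor of differentiating fibers, was at 550 ± 12.9 against 778 ± 15.2 CPM (ratio 1.42, adjusted p = 3.16e-06).

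Energy and lipid metabolism changed in single genes. *Cox6a2*, the muscle form of a cytochrome c oxidase subunit, was at 2.02, 1.68 and 1.74 CPM against 23.7, 21.7 and 20.1 CPM (11.99-fold, adjusted p = 4.48e-09), the one change among 84 tested oxidative phosphorylation genes, whose median log2 change was -0.02. Of 23 glycolysis genes, *Pfkp*, a phosphofructokinase, rose 3.22-fold to 4.48 ± 0.417 CPM and *Slc16a1* fell, while *Gapdh* was at 404 ± 20.3 against 430 ± 30.5 CPM (adjusted p = 0.506). Of 25 cholesterol synthesis and uptake genes, 8 were lower and none higher at the adjusted p, with a median log2 change of -0.14. With library size alone as the scale, 4 were higher and 2 lower and the median was 0.06, so the direction of this list depends on the scaling. *Dhcr7*, the last enzyme of the pathway, was at 27.8, 31.2 and 26.8 CPM against 13.9, 13.2 and 14.8 CPM (2.04-fold lower), and under 2-fold without wild-type replicate 2 or *Trpm3*-I/M replicate 2 (log2 -0.97 and -0.996). *Hmgcs1* and *Srebf2*, the most abundant of the list, were at 55.5 ± 0.849 against 44.4 ± 3.05 CPM and 46.8 ± 2.27 against 44.4 ± 2.51 CPM.

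Cytosolic ribosomal protein genes differed by small amounts. Of 80 tested, 57 were lower at the adjusted p and none higher, with a median log2 change of -0.19 and none by 2-fold, relative to the bulk of the genes. With library size alone as the scale, which places the median of all tested genes at 0.20, the median of this group was 0.01, with 4 lower and 7 higher. *Rplp0* was at 1017, 1166 and 1057 CPM against 941, 941 and 899 CPM, and *Rpl41* at 867 ± 65.9 against 760 ± 37.1 CPM. Many ribosomal protein genes have near-identical processed copies, which makes their counts uncertain. Of 13 smooth muscle actin and contractile genes tested, 7 were higher and none lower at the adjusted p, and *Myl9*, a myosin light chain, rose 3.00-fold to 28.5 ± 4.06 CPM, with *Cald1* at 135 ± 7.33 against 143 ± 4.46 CPM (adjusted p = 0.280). Of 13 aldehyde dehydrogenase and polyol pathway genes, none passed both thresholds.

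The defining genes of the lens kept their order of magnitude. All 16 crystallins were tested, 13 were lower at the adjusted p, none was higher and none changed by 2-fold, with a median log2 change of -0.31. Without *Trpm3*-I/M replicate 3, 9 were lower. Against library size alone 4 were lower and 1 higher, and the median was -0.11 where that of all tested genes was 0.20. *Cryaa* was at 165000, 180000 and 165200 CPM against 145100, 139300 and 132500 CPM (ratio 0.817, adjusted p = 0.0107), and *Cryge*, a gamma crystallin of fibers, at 79430 ± 8176 against 59820 ± 1169 CPM (ratio 0.753). *Crybb1* differed by a ratio of 0.849. Crystallins took up 61.5%, 63.9% and 61.0% of the counts in the wild-type libraries and 58.2%, 57.4% and 57.1% in the *Trpm3*-I/M libraries. The means were 62.1% ± 1.56 and 57.6% ± 0.557 (SD, n = 3), without overlap, and a two-sided exact permutation test of 3 against 3 libraries gave its smallest possible p, 0.1.

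Of 27 fiber membrane and cytoskeleton genes, none passed both thresholds, with 10 lower and 3 higher at the adjusted p. With library size alone as the scale, 4 were lower and 12 higher, so the balance turned round. The beaded filament genes *Bfsp1* and *Bfsp2* were at 12000 ± 660 against 9712 ± 748 CPM (ratio 0.809, adjusted p = 0.0435) and at 5257 ± 334 against 4431 ± 109 CPM (ratio 0.843, adjusted p = 0.0158). *Mip*, the fiber water channel aquaporin 0, was at 8238 ± 180 against 6850 ± 320 CPM (ratio 0.832). The fiber connexin *Gja3* was lower (1100 ± 47.1 against 928 ± 16.4 CPM, adjusted p = 0.00163). The epithelial connexin *Gja1* was the one member of its list to pass both thresholds, at 42.4, 39.6 and 38.6 CPM against 15.8, 17.5 and 14.6 CPM (2.51-fold lower, adjusted p = 8.80e-07).

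Among 17 tested lens epithelium genes, *Gja1* and the transcription factor *Sox2* fell and *Igfbp3* rose. *Sox2* was at 18.6, 18.9 and 23.3 CPM against 9.92, 9.83 and 8.71 CPM, 2.13-fold lower, and under 2-fold without wild-type replicate 3 (log2 -0.98). At the adjusted p, 6 of the 17 were lower and 4 higher. The amino acid transporter *Slc38a3* was at 55.4 ± 1.68 against 29.9 ± 2.21 CPM (adjusted p = 6.66e-08) and the transcription factor *Meis1* at 6.11 ± 0.761 against 3.63 ± 0.0687 CPM (adjusted p = 8.32e-05), and *Foxe3*, given above, was lower as well. These 3, all lower, were named after their values were seen and do not describe the list. Of its 17 tested genes, 8 lay above 0 and 9 below, with a median log2 change of -0.07. *Npnt*, an integrin ligand of epithelia, was at 94.0 ± 1.63 against 139 ± 7.65 CPM (ratio 1.48, adjusted p = 5.29e-06). Of 12 fiber transcription factors, *Etv5* rose, while *Maf* and *Prox1*, which drive fiber differentiation, were lower by ratios of 0.751 and 0.814 (adjusted p = 0.000542 and 0.000604). *Prox1* was at 564, 566 and 566 CPM against 433, 469 and 478 CPM.

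The heterozygote was also placed between wild-type and the homozygote. Each gene was tested for a departure from the log2 midpoint of the wild-type and *Trpm3*-M/M levels, and over all tested genes 12.9% lay above and 11.5% below it at an adjusted p of at most 0.05. These 2192 departures fell in number to 1408 without *Trpm3*-I/M replicate 2 and to 1450 without *Trpm3*-I/M replicate 3. Of the 232 genes higher in *Trpm3*-I/M, 120 lay above the midpoint, toward or beyond the homozygote, 93 did not depart from it and 19 lay below. Of the 67 lower genes, 45 lay below the midpoint, 19 did not depart and 3 lay above. The genes were chosen on the same *Trpm3*-I/M libraries, which favours departures away from wild-type, so these shares are a description. Compared with *Trpm3*-M/M directly (4.70% of tested genes changed), 115 of the 232 higher genes were higher still in the homozygote, 114 did not pass the thresholds between the genotypes and 3 were lower there.

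Departures above the midpoint with the smallest p were those of *Cldn10*, *P4ha3*, *Masp1*, *Thbd*, *Kcnk3*, *Col8a2*, *Sulf1* and *Kcna5*. *P4ha3*, a collagen prolyl hydroxylase, was at 7.37, 7.63 and 7.29 CPM in wild-type, 62.1, 56.2 and 50.8 CPM in the heterozygote and 45.6 ± 2.45 CPM in the homozygote. *Masp1* was at 13.6 ± 1.05 CPM in the heterozygote and 17.3 ± 0.268 CPM in the homozygote, and *Thbd* at 33.2 ± 1.85 and 35.8 ± 5.40 CPM. *Sulf1*, a heparan sulfate sulfatase, was at 45.2, 45.2 and 51.4 CPM, then 107, 107 and 103 CPM, then 70.1 ± 1.31 CPM. In none of the 8 did the homozygote pass both thresholds against the heterozygote, and the log2 differences ran from -0.83 (*Col8a2*) to 0.34 (*Masp1*). At the adjusted p alone, *Cldn10* (log2 -0.81), *Sulf1* (log2 -0.59), *Col8a2*, *P4ha3* and *Kcnk3* were lower in the homozygote than in the heterozygote. *Masp1* was higher there, and *Thbd* and *Kcna5* did not pass. Departures below the midpoint were led by *Nnat*, *Prrt4*, *Slc6a15*, *Epha5*, *Car2*, *Chrna4*, *Rasgrp1* and *Jph2*. *Slc6a15* was at 1.26 ± 0.264 CPM in the heterozygote and 1.14 ± 0.201 CPM in the homozygote. *Jph2*, which ties the endoplasmic reticulum to the plasma membrane, was at 8.83 ± 0.793, 2.85 ± 0.276 and 4.55 ± 0.629 CPM. *Car2* rose in both genotypes, to 11.6 ± 1.53 CPM in the heterozygote and 226 ± 41.7 CPM in the homozygote.

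In 12 genes the heterozygote lay beyond both other genotypes, by at least 2-fold against each. Higher than both were *Megf6*, *Ptger1* and *Clec11a*. *Megf6*, an EGF-repeat protein, was at 20.0, 18.97 and 16.8 CPM in wild-type, then 51.6, 46.1 and 49.1 CPM in the heterozygote and 24.4 ± 2.53 CPM in the homozygote. *Ptger1*, a prostaglandin E2 receptor, was at 2.73 ± 0.643, 12.2 ± 0.851 and 5.59 ± 0.974 CPM, and *Clec11a*, a secreted lectin-like growth factor, at 0.751 ± 0.0598, 6.72 ± 1.18 and 2.88 ± 0.930 CPM. For all 3 the homozygote lay between wild-type and the heterozygote.

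Among those lower than both were *Sparcl1*, *Ctsc*, *Chrna4*, *Rasgrp1*, *Egr1*, *Ildr2*, *F2r* and *Grb10*. *Chrna4*, a nicotinic receptor subunit, was at 29.98, 31.1 and 30.1 CPM, then 18.6, 14.2 and 12.4 CPM, then 42.0 ± 4.06 CPM. *Rasgrp1*, a calcium- and diacylglycerol-sensitive activator of Ras, was at 9.28, 11.2 and 7.81 CPM, then 4.03, 4.58 and 3.94 CPM, then 10.5 ± 0.769 CPM. *F2r* was at 41.6 ± 3.47, 15.7 ± 1.54 and 32.9 ± 6.98 CPM. For *Sparcl1*, *Ctsc* and *Egr1* the homozygote lay well above wild-type, at 17.0 ± 3.12, 33.03 ± 13.3 and 19.6 ± 6.29 CPM against 6.05 ± 0.658, 4.58 ± 0.974 and 4.28 ± 0.896 CPM, with 2.54 ± 0.835, 2.201 ± 0.453 and 1.45 ± 0.518 CPM in the heterozygote. *Ildr2* and the imprinted growth inhibitor *Grb10* were at 1.29 ± 0.297 and 4.73 ± 0.804 CPM in the heterozygote, below both other genotypes. Against wild-type, *Chrna4* (log2 -1.01), *Ctsc* (log2 -1.06) and *Grb10* (log2 -1.15) lost their call when single libraries were left out. The values nearest 0 were -0.89 without *Trpm3*-I/M replicate 3 for *Chrna4*, and -0.93 and -0.90 without wild-type replicate 1 for *Ctsc* and *Grb10*.

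**Figure D5:**
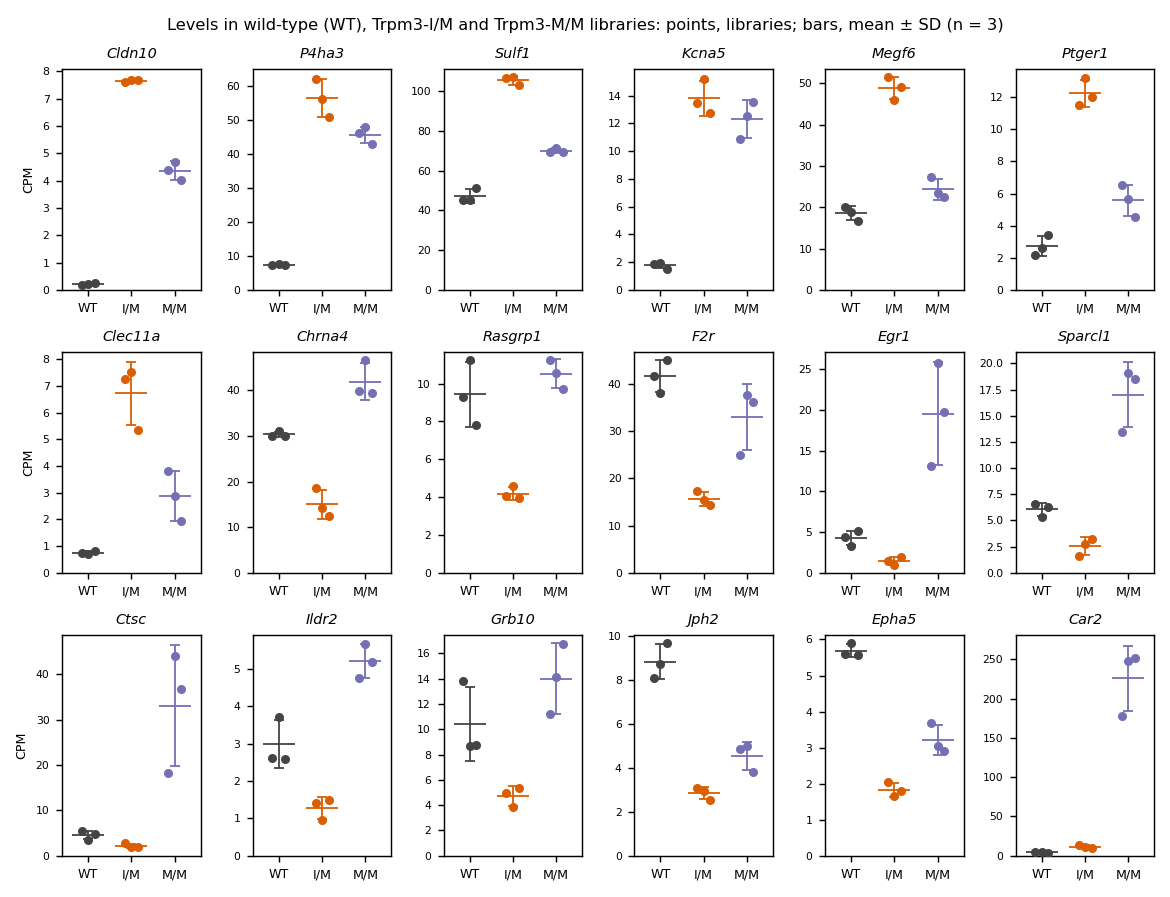
CPM of 18 genes in each wild-type (grey), *Trpm3*-I/M (orange) and *Trpm3*-M/M (purple) library, with bars for the mean ± SD (n = 3) on linear axes from 0. *Megf6*, *Ptger1* and *Clec11a* peak in the heterozygote, *Chrna4*, *Rasgrp1* and *F2r* are lowest there, and *Car2* rises mainly in the homozygote (226 ± 41.7 CPM).

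Promoters of the changed genes were searched for binding motifs of transcription factors that calcium and ERK signalling are known to activate. The windows ran from 250 bases before to 50 bases after the RefSeq start (GRCm38.p6) and were given for 154 of the 232 higher, 49 of the 67 lower and 7022 of the tested genes. The AP-1 site, searched as TGACTCA or TGAGTCA on both strands, was in 3.25% of the higher, 8.16% of the lower and 3.03% of the tested genes, and in 5.17% of all 27025 windows of the table. The cyclic AMP response element, TGACGTCA, was in 4.55%, 2.04% and 3.38%, and in 1.88% of all windows. The shares rest on 5 and 4 genes for the AP-1 site and on 7 genes and 1 gene for the response element. The sites of 4 changed genes described above are shown, 2 higher and 2 lower, with the motif in capitals and each sequence 5′ to 3′ on the gene's strand. A match is a description of the letters and not of binding.
Capn6 promoter (higher), chrX:143827434-143827500, minus strand: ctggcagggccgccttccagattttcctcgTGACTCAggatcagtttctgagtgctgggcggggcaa
Anxa2 promoter (higher), chr9:69453558-69453624, plus strand: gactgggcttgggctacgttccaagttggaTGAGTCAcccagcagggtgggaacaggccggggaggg
F2r promoter (lower), chr13:95618634-95618700, minus strand: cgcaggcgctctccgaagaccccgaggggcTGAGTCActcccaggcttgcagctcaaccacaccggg
Rsad2 promoter (lower), chr12:26456503-26456569, minus strand: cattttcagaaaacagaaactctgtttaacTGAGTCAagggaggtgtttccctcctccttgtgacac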

How the data were processed

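RNA from P7 lenses was sequenced after poly-A selection, with a kit that does not mark strand. Reads were aligned and quantified by the authors in DRAGEN, who deposited estimated counts per gene and library (expected counts), neither normalized nor pooled. The table held 55774 entries for 55487 gene identifiers, and repeated entries of 168 identifiers were used once. Of the estimated counts 88.4% were whole, and all were rounded before use. Whole counts had been assumed when the tests were chosen. A second table, which holds the authors' own edgeR comparisons (counts, CPM, log2 fold changes and p-values), was not used.

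A gene was tested if 3 or more of the 12 libraries reached 5 CPM. Libraries were scaled by TMM factors, and all 12 entered a quasi-likelihood fit in edgeR 4.0.16 (R 4.3.3) with genotype as the factor. Adjustment followed Benjamini–Hochberg over all tested genes of a comparison, and a gene was called at a fold change of at least 2 and an adjusted p of at most 0.05. Each standard error (SE) is the log2 fold change divided by the root of its F statistic, and CPM values use the TMM factors. Where every wild-type library held at most 3 counts, the ratio of summed counts is given with an exact 95% interval. Depth ran from 56162169 to 82090198 counts per library, and intervals cover counting error only. The scripts were tested on simulated counts. Coordinates are from GENCODE (GRCm38).

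The gene lists and the genes named were chosen with earlier results of these data known, and lists were described by counts without a test. Named were *Trpm3*, the 12 largest rises and falls among called genes above 5 CPM, up to 5 called members and the 2 most abundant members of each list, the 8 clearest departures from the midpoint in each direction, the genes in which *Trpm3*-I/M lay beyond both other genotypes, and genes the study names for the lens. Abundant members that differed by less than 0.05 on the log2 scale, and some others, are not described singly, and some genes the rule names are not reported here. Alternatives were library size only, TMM factors without crystallin genes, upper-quartile scaling, DESeq2 1.42.0, other filters, the 6 libraries alone, a replicate block, no fold threshold, and each library left out in turn. Figures were drawn with matplotlib 3.10.9.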

Additional observations from a re-analysis of the deposited data

How the results depend on the processing

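The counts of 232 higher and 67 lower genes kept within 1.5-fold under upper-quartile scaling, TMM factors without the crystallin genes, DESeq2, the fit of 6 libraries and every left-out library (228 to 242 higher, 66 to 68 lower). With library size only, 309 genes were higher and 44 lower, and the median of all tested genes moved to 0.20. On that scale *Slc24a4* (0.0281), *Col4a1* (0.0298), *Col4a2* (0.0302), *Sparc* (0.13), *Igfbp7* (0.10), *Srebf2* (0.12), *Aldh1a1* (0.15) and *Rpl41* (0.0123) changed sign, to values under that shift, and *Chrna4*, *Rasgrp1*, *Ctsc*, *Grb10*, *Sox2*, *Ppp1r15a*, *Sema3a* and *Dhcr7* fell by less than 2-fold. With the minimum in 3 of the 6 libraries, 118 genes were higher, and 64 of the changed genes were in a functional list, against 105. Without a filter on low counts, 856 genes were higher, 359 lower and 269 in a list, 2335 differed between *Trpm3*-I/M and *Trpm3*-M/M (422 with the filter) and 3449 departed from the midpoint (2192 with it); more genes were then tested. Without the fold threshold, 1552 were higher, 1377 lower and 501 in a list. With 1 library left out, departures from the midpoint ranged from 1408 (without *Trpm3*-I/M replicate 2) to 2377, with 1450 without *Trpm3*-I/M replicate 3, genes between *Trpm3*-I/M and *Trpm3*-M/M from 400 to 467, genes in a list from 105 to 110 and the difference in crystallin share from -5.135 to -3.692 percentage points. Except where a changed number of genes or libraries is named, the cause was not tested.

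Replicate numbers were shared between genotypes, but libraries with the same number did not deviate together (r = 0.149, -0.162 and -0.0408), so the numbers were not taken as pairs. With the replicate number as a block, 300 genes were called, 296 of them among the 299, with 234 higher and 66 lower. Depth limits the genes near 0 in wild-type, whose ratios rest on few counts, and 3 pools a genotype limit every test.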
